A study of Mus musculus with 23 samples.

Results

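The comparison described here set mouse embryonic stem cells (ESC) labelled as ERF knockout against ERF wild type ESC, with RAS present, in the naive medium 2iL. It took 3 libraries of each group, chosen by their column names in the deposited count table, which are 6 of the 23 libraries of the series. The study also removed RAS with 4-hydroxytamoxifen (OHT) for 6 days, and moved cells for 48 hours to N2B27 with KOSR, FGF2 and Activin A on fibronectin (FA), which starts differentiation to epiblast-like cells. All groups used here come from the Raslox/lox line, which is H-Ras-/- and N-Ras-/- and carries a floxed further RAS gene and Ubiq-CreERT2, where a Cre fused to an estrogen receptor is driven by a ubiquitin promoter. RAS present therefore means that the floxed gene is the one RAS gene left by genotype, and no library of this comparison received OHT. The 2iL medium is N2B27 with the MEK inhibitor PD0325901, the GSK3 inhibitor CHIR99021 and LIF, on gelatin. The labels do not say whether the ERF knockout is 1 clone or several, or whether replicates are separate cultures. The p-values thus measure the spread between libraries within groups, estimated over all 23 libraries of the series. That spread may be technical.

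ERF is a repressor of the ETS family of transcription factors. When the RAS, MEK and ERK cascade is active, ERK phosphorylates ERF and the protein leaves the nucleus, which frees ETS sites on DNA. In 2iL the MEK inhibitor keeps ERK activity low, so ERF can stay nuclear, and the cells are held in the naive state that resembles the epiblast before implantation. An ESC culture also holds a few cells that resemble other early embryonic states, among them primitive endoderm and the embryo at the time its genome is first transcribed.

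The libraries held 17.2 to 29.9 M estimated counts, and all levels below are CPM (counts scaled to 1 M of the adjusted library size) in replicates 1, 2 and 3. Where single libraries are left out they are called wt1 to wt3 for wild type and ko1 to ko3 for the ERF knockout label. Naive markers marked all 6 libraries as ESC: 8 of them summed to 3463 to 3907 CPM in wild type and 3117 to 3299 CPM in the ERF knockout label. Some libraries stood apart from the others of their group. Wild type replicate 1 was high over chromosome 8, with a median log2 difference of 0.22 from the wild type mean over 572 genes against -0.11 and -0.12 in the other wild type libraries, and ERF knockout label replicate 1 was high over chromosome 11, at 0.11 over 856 genes against -0.05 and -0.04. In the ERF knockout label, replicate 3 held the highest and replicate 1 the lowest primitive endoderm signal, and replicate 3 the lowest signal of genes of the two-cell embryo. Mitochondrial genes took 2.35 to 2.85% of counts in wild type and 3.36 to 3.40% in the ERF knockout label. Markers of other cell states moved with the groups, where 5.2% of all genes rose and 4.52% fell. Of 6 primitive endoderm markers 4 rose, and they summed to 11.6 to 19.7 CPM in wild type and 20.3 to 48.6 CPM in the ERF knockout label; 6 of 6 two-cell-like markers rose, from 11.1 to 22.3 CPM to 50.9 to 151 CPM in sum. Of 7 trophoblast markers 2 fell (17.8 to 19.01 and 12.8 to 14.03 CPM in sum), and 4 neural markers summed to 8.73 to 13.7 and 16.2 to 20.0 CPM with none called. The part of these states and of the mitochondrial share in the changes of other genes was not tested. Of 8 fibroblast markers, which would show feeder cells, Col3a1, Dcn and Lum were at 0 in all 6 libraries, 1 of the others rose (Thy1, from 1.72, 1.19 and 1.53 CPM to 3.36, 3.79 and 3.00 CPM) and 1 fell (Col1a1, from 3.36, 2.68 and 2.46 CPM to 1.35, 1.30 and 1.37 CPM), and the 8 summed to 19.3 to 21.4 CPM in wild type and 13.98 to 16.4 CPM in the ERF knockout label.

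The Erf transcript did not fall in the libraries labelled ERF knockout. Erf (chr7:25242561-25250761, minus strand, mm10) was at 70.6, 76.4 and 85.8 CPM in wild type and 129, 123 and 96.1 CPM in the ERF knockout label, so the ranges did not overlap and the knockout label was the higher (log2 fold change 0.58, SE 0.13, adjusted p = 0.00218, edgeR's quasi-likelihood test). This was below the minimum of 2-fold used for calls. Counts per gene do not show whether a transcript can be translated, so the level of Erf does not check the label. Of the RAS genes that are deleted by genotype in every group, Hras was at 14.3, 15.4 and 14.9 CPM in wild type and 15.5, 15.1 and 14.4 in the ERF knockout label. Nras was at 31.7, 40.3 and 39.7 CPM and at 43.6, 7.74 and 30.7 CPM, where ERF knockout label replicate 2 was the low library. The groups overlapped for both genes. These levels do not by themselves show the deletions that the labels give, and since counts per gene do not show which part of a gene was removed, they do not check them.

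A gene was called when edgeR's quasi-likelihood test gave a Benjamini-Hochberg adjusted p under 0.05 and the change was at least 2-fold. Of 20372 genes tested, 1980 were called, which is 9.72%: 1060 rose (5.2%) and 920 fell (4.52%) in the ERF knockout label. The median log2 fold change over all genes was -0.0019, a value that the scaling sets near 0. Most changes were of moderate size: 654 rises were between 2-fold and 4-fold, 261 between 4-fold and 8-fold, and 145 larger, and among the falls these numbers were 599, 202 and 119. A level of at least 5 CPM in one of the groups was reached by 338 rises and by 338 falls. Without the fold minimum 5668 genes passed. The CPM ranges of the groups did not overlap for 8336 genes, 40.9% of those tested, so the lack of overlap alone is common in this comparison. The count of calls was 1746 (957 rises, 789 falls) without the genes of chromosomes 8 and 11, and 1813 (1028 rises, 785 falls) without replicate 1 of both groups. In the plot of change against level the named genes spread over the whole range of expression.

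Single genes are ranked here among calls with a usual symbol, at least 5 CPM in 1 of the groups and ranges that do not overlap; fitted changes of genes at or near 0 in a group can be larger. The largest rise in this order was Ankrd1, which encodes a muscle ankyrin repeat protein and is a well known target of YAP and TEAD. Ankrd1 (chr19:36111961-36120099) was at 0, 0.0595 and 0 CPM in wild type and 3.32, 8.45 and 10.8 CPM in the ERF knockout label, a ratio of summed counts of 493 (95% counting interval 88.1 to 19532). It was also called in the RAS deleted and FA comparisons, at fitted log2 fold changes of 9.08 and 8.01. Such fitted values have no fixed size where a group is at or near 0. Cubn, which encodes cubilin, an uptake receptor of visceral endoderm and kidney, was at 0.07, 0.0595 and 0.0929 CPM and 5.96, 10.7 and 16.5 CPM, a ratio of 146 (95% counting interval 62.2 to 451). For both genes the ERF knockout label libraries stood far above a wild type level near 0. Tagln (transgelin, an actin-binding protein) rose by 4.62 on the log2 scale, Adam23 (a disintegrin family membrane protein) by 4.39 and Flt1 (a VEGF receptor) by 3.73. Adam23 was at 2.31, 1.01 and 0.465 CPM and 30.7, 22.6 and 32.4 CPM (SE 0.31, adjusted p = 1.41e-08, edgeR's quasi-likelihood test). Further large rises were Nhs (3.36), Evc (3.25), Csrnp3 (3.17) and Pde9a (3.11), which encodes a cyclic GMP phosphodiesterase. The remaining places among the 15 largest rises belong to basement membrane collagens, Zscan4 genes and Spry4, described with their groups.

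The largest fall in the same order was Gata3, a transcription factor of trophoblast (chr2:9857078-9890034). Gata3 was at 4.69, 6.01 and 4.41 CPM in wild type and 0.288, 0.0541 and 0.105 CPM in the ERF knockout label (log2 fold change -4.97, SE 0.32, adjusted p = 2.2e-10, edgeR's quasi-likelihood test). Pramel6, one of a gene family known for helping naive ESC keep their DNA methylation low, was at 6.65, 6.01 and 7.57 CPM and 0.288, 0.271 and 0.105 CPM. Summed over Pramel6 and Pramel7, the level was 12.1 ± 0.344 CPM (SD, n = 3) in wild type and 0.927 ± 0.0423 CPM (SD, n = 3) in the ERF knockout label. Dppa3, the maternal factor that protects DNA from methylation changes after fertilization (chr6:122626410-122630272), was at 28.6, 30.4 and 27.8 CPM and 2.4, 1.52 and 0.736 CPM (-4.20, SE 0.26, adjusted p = 8.31e-10, edgeR's quasi-likelihood test). Spic, an ETS factor that is high in 2iL, was at 18.03, 12 and 12.6 CPM and 0.288, 0.704 and 0.946 CPM. The X-linked Xlr3 to Xlr5 genes fell as a family, from 142, 148 and 132 CPM summed over 9 genes to 23.9, 11.5 and 19.13 CPM. Members of that family are near copies of each other, so the split of reads among them is uncertain while the sum is less so. Other large falls were Kcnf1 (-3.82), Prrt3 (-3.25), Tbx15 (-3.25), Fbln5 (-3.18), Lrrc15 (-3.13), Pof1b (-3.13) and Aspa (-3.11). Calcoco2, an autophagy receptor, and Meis2, a homeobox factor, were also among the 15. Calcoco2 was at 79.5, 119.8 and 126 CPM and 13.5, 10.5 and 11.1 CPM, and Meis2 at 23.5, 26.4 and 27.1 CPM and 2.59, 2.54 and 3.47 CPM.

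**Figure D1:**
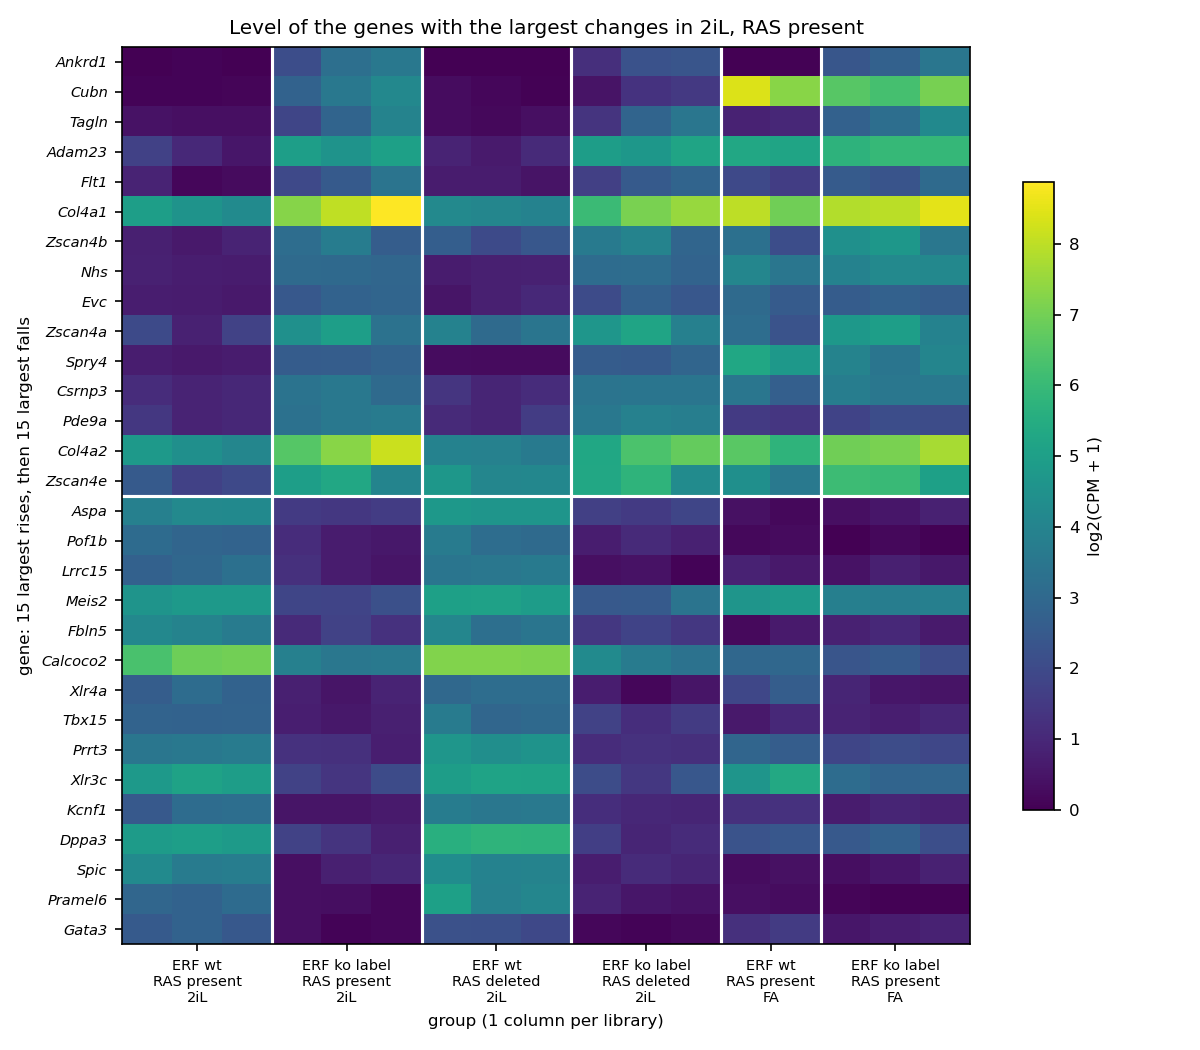
Level of the 15 largest rises and the 15 largest falls, as log2(CPM + 1) in colour, with 1 column per library and groups along the x axis. The first 6 columns are the comparison itself; in the 6 columns with RAS deleted most of the same contrasts are visible, while in the 5 FA columns genes such as Spic and Dppa3 are at like levels in both groups.

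Among called genes with a usual symbol and ranges that do not overlap, the most abundant that rose were Apoe, Txnip, Lama1, Col4a1 and Lamb1. Numbered predicted genes are left out of this order, although Gm48271, which rose, and Gm49089, which fell, reached like levels. Apoe, a lipid carrier, was at 358, 287 and 257 CPM and 489, 689 and 834 CPM (1.16, SE 0.25, adjusted p = 0.00277, edgeR's quasi-likelihood test). Txnip, an inhibitor of thioredoxin and of glucose uptake, was at 418, 297 and 241 CPM and 637, 724 and 635 CPM. Both calls sat close to the 2-fold minimum. That of Apoe fell under it without ko3 (0.97 on the log2 scale). That of Txnip was lost without ko2, wt2 or wt3 (0.90 to 1.01), where the adjusted p did not pass either (0.056, 0.0641 and 0.0864, edgeR's quasi-likelihood test). Without wt2 (1.01) it was lost on the adjusted p alone. The most abundant genes with a usual symbol that fell were Ak4, a mitochondrial adenylate kinase, at 332, 300.2 and 336 CPM and 179.5, 159 and 122 CPM, Rnf213, a large ubiquitin ligase, at 281, 315 and 348 CPM and 57.8, 65.6 and 58 CPM, and Aqp3, a water and glycerol channel, at 341, 229.8 and 243 CPM and 74.2, 76.3 and 82 CPM. Lack of overlap between groups was required for this order, so it is no result for these genes. Ak4 dropped under the fold minimum without ko3 (-0.93). Nfatc2ip and Aebp2, a cofactor of the Polycomb complex PRC2, fell by 1.27 and 1.13 on the log2 scale. Around the 2-fold minimum, Ank and Satb1 lay just inside at 2.00-fold, and Nqo1 just outside it; the call of Ank was lost in 10 of 16 alternatives, among them without ko1 or wt2 (-0.94 and -0.98), and that of Satb1 without ko1, ko2, wt2 or wt3 (0.86 to 0.99).

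For genes that rose or fell as close families or that were named above, the promoter is shown here as the 250 bases before the RefSeq transcription start in GRCm38.p6 (the mm10 assembly), read 5′ to 3′ on the gene's strand. These 6 windows overlap no annotated exon. The Zscan4 genes rose together (values below), Cubn was among the largest rises, and Pramel6 and Spic among the largest falls. Capitals mark TGANTCA, the motif of AP-1 factors, one of 3 motifs searched on both strands. The others were CCGGAAGT and ACAGGAAG, which ETS factors bind, and neither was found in these 6 windows. The windows are chr7:10905051-10905300 (minus strand) for Zscan4b, chr7:11005495-11005744 (plus) for Zscan4c, chr7:11397665-11397914 (plus) for Zscan4f, chr2:13491877-13492126 (minus) for Cubn, chr2:87506315-87506564 (plus) for Pramel6 and chr10:88683024-88683273 (minus) for Spic.
Zscan4b: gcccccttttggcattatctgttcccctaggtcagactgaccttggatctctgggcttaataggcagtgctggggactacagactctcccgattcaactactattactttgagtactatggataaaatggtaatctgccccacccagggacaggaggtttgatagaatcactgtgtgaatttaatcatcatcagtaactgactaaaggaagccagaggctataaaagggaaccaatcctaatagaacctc
Zscan4c: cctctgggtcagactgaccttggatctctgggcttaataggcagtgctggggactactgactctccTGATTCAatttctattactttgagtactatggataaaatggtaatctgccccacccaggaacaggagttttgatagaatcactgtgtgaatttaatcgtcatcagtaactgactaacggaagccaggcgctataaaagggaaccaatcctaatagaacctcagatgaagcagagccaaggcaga
Zscan4f: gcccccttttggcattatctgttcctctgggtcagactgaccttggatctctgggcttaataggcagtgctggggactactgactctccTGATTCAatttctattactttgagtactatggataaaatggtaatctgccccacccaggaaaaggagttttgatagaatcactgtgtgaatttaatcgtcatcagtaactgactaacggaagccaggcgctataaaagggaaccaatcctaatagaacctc
Cubn: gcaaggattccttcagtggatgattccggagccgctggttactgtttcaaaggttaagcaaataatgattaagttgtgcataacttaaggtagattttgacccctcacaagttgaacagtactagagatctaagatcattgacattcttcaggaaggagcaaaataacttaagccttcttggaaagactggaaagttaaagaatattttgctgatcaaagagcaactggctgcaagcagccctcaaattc
Pramel6: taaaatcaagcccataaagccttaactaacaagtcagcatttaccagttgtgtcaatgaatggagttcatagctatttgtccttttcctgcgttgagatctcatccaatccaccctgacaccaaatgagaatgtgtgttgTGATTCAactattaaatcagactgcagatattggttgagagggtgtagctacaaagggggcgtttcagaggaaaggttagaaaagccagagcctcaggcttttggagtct
Spic: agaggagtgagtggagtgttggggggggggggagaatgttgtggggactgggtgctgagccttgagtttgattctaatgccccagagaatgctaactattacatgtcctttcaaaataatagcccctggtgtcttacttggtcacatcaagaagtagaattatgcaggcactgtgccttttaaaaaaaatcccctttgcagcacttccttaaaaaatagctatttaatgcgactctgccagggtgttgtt

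The Zscan4c and Zscan4f windows were identical at 99.6% of 227 aligned bases, and Zscan4b and Zscan4f at 94.8% of 250. The AP-1 motif starts 184 bases before the start of Zscan4c, 161 before that of Zscan4f and 110 before that of Pramel6, and Zscan4b lacks these letters in the window. Over the 12852 tested genes with a RefSeq promoter, TGANTCA was in 5.73% of windows, and in 7.91% of those of genes that rose and 7.19% of those of genes that fell. CCGGAAGT was in 5.84% of all windows, in 2.28% of those of 657 genes that rose and in 1.96% of those of 612 genes that fell. ACAGGAAG was in 3.06, 2.74 and 3.27% of windows. A match describes letters in a window and does not show that a factor bound there.

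Primitive endoderm genes rose together. Primitive endoderm is the extraembryonic layer that faces the blastocyst cavity and lays down a basement membrane of laminin and type IV collagen. Of 18 genes on the list, 16 passed the filter on low counts, 12 rose and none fell, beside 5.2% of all genes called higher; the median log2 fold change of the 16 was 2.17 beside -0.0019 over all genes. In bulk RNA, more cells of a type and more RNA per cell cannot be told apart, here and in every cell type list below.

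The basement membrane genes were, with Apoe, the abundant members that rose. Col4a1 (chr8:11198423-11312826), a chain of type IV collagen, was at 30.7, 22.7 and 18.2 CPM in wild type and 154, 263 and 470.2 CPM in the ERF knockout label (3.62, SE 0.49, adjusted p = 5.02e-05, edgeR's quasi-likelihood test). Its partner Col4a2, which starts next to Col4a1 on the opposite strand of chromosome 8 (chr8:11312805-11449287), was at 26.3, 20.6 and 15.7 CPM and 91.4, 157 and 285 CPM (3.08). Both genes lie on chromosome 8, where wild type replicate 1 stood high, and both rose over that library. The annotations of the pair overlap slightly at their starts, and the authors' use of strand is not given in the sources used here. The laminin chain genes Lama1 and, from the matrix list, Lamb1 were at 81.9, 93 and 91.3 and 45.2, 45.3 and 45.4 CPM in wild type, and at 220.4, 318 and 477 and 159.8, 222 and 340.0 CPM in the ERF knockout label. Their log2 fold changes were 1.93 (SE 0.37, adjusted p = 0.00104) and 2.41 (SE 0.23, adjusted p = 8.97e-07, edgeR's quasi-likelihood test). Lamc1, the third chain of that laminin, was already abundant at 703, 697 and 699 CPM and was at 750.1, 863 and 1017 CPM, a difference of 0.33 that was not called. On the TPM scale, which corrects for length, Col4a1 went from 4.53 ± 0.598 to 47.5 ± 24.3, Lama1 from 9.28 ± 0.734 to 31.4 ± 10.6 and Lamb1 from 7.77 ± 0.616 to 38 ± 12.5 (mean ± SD, n = 3), so the 3 matrix genes reached like levels in the ERF knockout label.

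Uptake receptors and adaptors of endoderm rose with the matrix genes. Cubn was among the largest rises of all (above), its partner Amn (amnionless) rose by 2.55, and Dab2, an endocytic adaptor used to mark primitive endoderm, by 2.58 from 1.96, 2.38 and 2.46 CPM to 7.59, 11.9 and 21 CPM. Pdgfra, the receptor that marks primitive endoderm precursors, was at 2.17, 1.73 and 1.9 CPM and 5.81, 8.55 and 15.3 CPM. The transcription factors were low: Hnf4a rose by 2.85, Foxa2 by 2.67, Sox7 by 2.01 and Sox17 by 1.32 (adjusted p = 0.0183, edgeR's quasi-likelihood test). Hnf4a was at 0.455, 0.357 and 0.186 CPM and 1.97, 2.27 and 3.21 CPM, and Sox17 at 3.33, 1.01 and 1.39 CPM and 2.83, 5.85 and 6.25 CPM, with overlap for Sox17. The GATA factors that direct the lineage did not pass: Gata6 was at 6.86, 3.69 and 4.37 CPM and 3.89, 5.68 and 7.62 CPM (0.18), and Gata4 at 7, 7.2 and 3.53 CPM and 7.3, 10.5 and 15.8 CPM (0.92, adjusted p = 0.0662, edgeR's quasi-likelihood test). Gata6 levels overlapped between the groups, whereas Gata4 was called without ko1 (1.17) and without both replicates 1 (1.33).

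The ERF knockout label libraries differed among themselves in this list, and always in the same order. All 12 genes that rose were lowest in replicate 1 and highest in replicate 3, and 10 of the 12 did not overlap with wild type, where 1018 of all 1060 rises (and 40.9% of all genes, called or not) did not. Summed over the 16 tested genes, the list stood at 699, 592 and 546 CPM in wild type and at 1167, 1708 and 2466 CPM in the ERF knockout label. Without replicate 3 of the ERF knockout label, 8 genes rose and the median was 1.74. The 4 calls lost there were Foxa2, Sox17, Sox7 and Apoe (Foxa2 adjusted p = 0.0881, edgeR's quasi-likelihood test). Sox17 was also lost without ko2, wt2 or wt3 (1.05 to 1.19), and Sox7 without ko2, wt1 or wt3 (1.75 to 2.04). Without replicate 1 of both groups 13 rose and the median was 2.52, and without genes of chromosomes 8 and 11 the counts were 10 of 13. In the plot of the list by library, even the lowest ERF knockout label library lies above wild type for most genes.

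**Figure D2:**
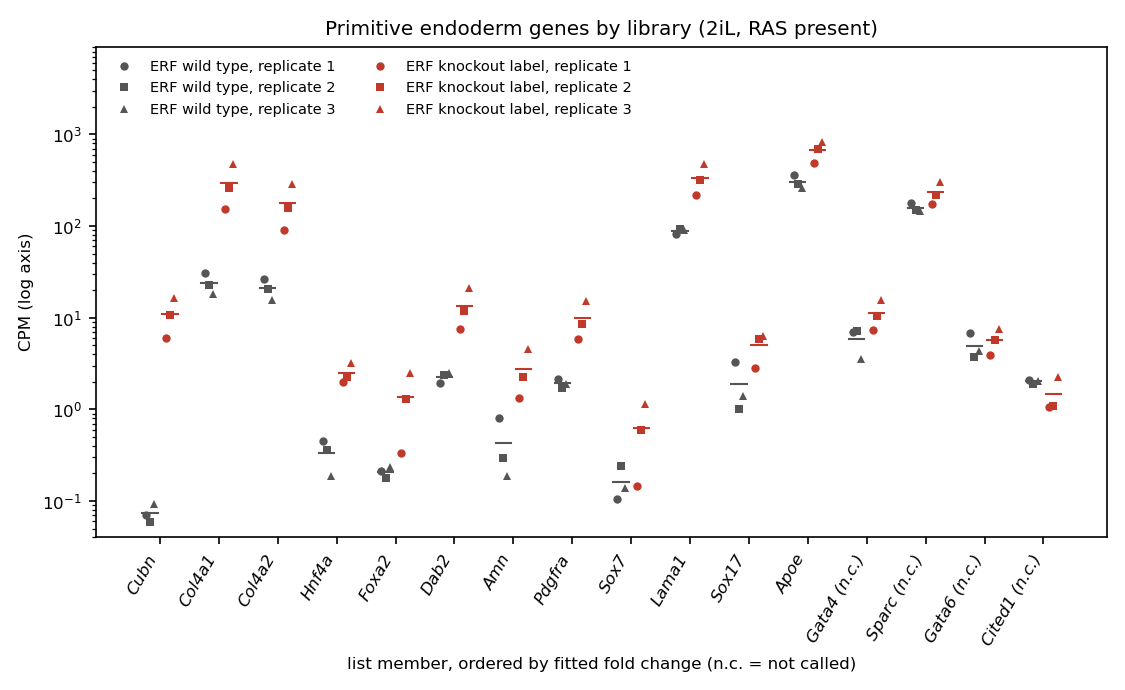
CPM on a log axis for each tested primitive endoderm gene, ordered by fold change, with grey symbols for the 3 wild type and red symbols for the 3 ERF knockout label libraries (shape gives the replicate) and a line at each mean. For the 12 called genes replicate 3 of the ERF knockout label is the top red symbol and replicate 1 the bottom one; for Gata6 the red and grey symbols overlap.

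Genes of the two-cell-like state rose in the ERF knockout label as well. In mouse ESC a small share of cells passes through a state that resembles the two-cell embryo, switching on the transcription factor Dux, the Zscan4 cluster and genes driven by the MERVL retroelement. Of 15 genes on the list 13 were tested, 11 rose and none fell, beside 5.2% of all genes called higher, with a median log2 fold change of 2.70. Zscan4f (chr7:11397915-11402318) was at 12, 6.07 and 5.39 CPM in wild type and 70.9, 83.2 and 29.1 CPM in the ERF knockout label (2.93, SE 0.64, adjusted p = 0.00295, edgeR's quasi-likelihood test). Zscan4c was at 6.51, 3.63 and 4.97 CPM and 40.1, 48.5 and 13.9 CPM (2.72). The 2 groups did not overlap for either gene, although replicate 3 was well below the others of its group. Zscan4b rose by 3.56, Zscan4a by 3.23, Zscan4e by 3.02 and Zscan4d by 2.27. Since these genes are near copies, the sum over the 9 rows of the Zscan4 family is the firmer value: 36.6, 18.03 and 24.5 CPM in wild type against 224, 282 and 98.0 CPM in the ERF knockout label, 7.64-fold higher in the mean.

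Genes outside the Zscan4 cluster moved the same way. Zfp352, a zinc finger gene that arose by retrotransposition, rose by 3.26, Tcstv3 by 2.88 and Tmem92 by 2.39, the last from 4.97, 1.9 and 4.13 CPM to 25, 26 and 8.72 CPM. Duxf3, the row for the factor Dux, was at 0.735, 0.0595 and 0.465 CPM and 2.98, 3.52 and 1.31 CPM (2.48). The Usp17l genes, also expressed in that state, summed over 5 rows to 10.99, 5.53 and 6.46 CPM in wild type and 26.4, 31.9 and 12.7 CPM in the ERF knockout label. All 11 genes that rose were lowest in replicate 3 of the ERF knockout label, the library with the highest primitive endoderm signal, and 10 of 11 did not overlap with wild type, again beside 1018 of all 1060 rises. The count of calls was 7 when replicate 2 of the ERF knockout label or replicate 2 or 3 of wild type was left out, 8 without ERF knockout label replicate 1, and the median stayed between 2.29 and 3.19. Tcstv3 and Zscan4d each lost their call without ko1, ko2, wt2 or wt3, at 2.46 to 2.66 and at 2.07 to 2.28.

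Most pluripotency genes were not called. Of 21 naive genes, 1 rose and 2 fell (14.3% called, median -0.13), and of 13 general pluripotency genes 2 rose and none fell (15.4%, median 0.06), beside 9.72% of all genes called. Pou5f1, which encodes OCT4, was at 545, 583 and 604 CPM and 529, 572 and 562 CPM, and Esrrb at 449.6, 420.0 and 437 CPM and 541, 572 and 551 CPM (0.35). Nanog was at 584, 609 and 626 CPM in wild type and 379, 379 and 310.1 CPM in the ERF knockout label, lower in all 3 libraries, but by less than 2-fold (-0.77, SE 0.15, adjusted p = 0.000538, edgeR's quasi-likelihood test). The naive genes that fell were Dppa3 (above) and Prdm14, a repressor of FGF receptor signalling and of DNA methylation, at 31.5, 33.8 and 40.4 CPM and 15.5, 14.8 and 11.1 CPM (-1.35). The naive gene that rose was Mael, a piRNA pathway gene, at 2.38, 3.45 and 3.48 CPM and 13.8, 14.2 and 11.5 CPM (2.10).

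Among general pluripotency genes, Lin28a and Utf1 rose. Lin28a, which encodes an RNA-binding protein that blocks let-7 processing and marks cells leaving the naive state, was at 3.71, 7.74 and 8.45 CPM and 43.6, 52.5 and 55.1 CPM (2.96). Its paralog Lin28b was at 2.7, 2.98 and 2.69 CPM and 13.9, 14.3 and 11.7 CPM (2.26), and these were the 2 calls among 14 genes of the Lin28 and let-7 list (median -9.05e-05). Utf1, a chromatin factor of undifferentiated cells, was at 34.8, 35.1 and 35.4 CPM and 86.9, 82.3 and 79.9 CPM. All 3 genes were higher in every ERF knockout label library than in any wild type library. Tdgf1, a Nodal coreceptor, was at 188, 166 and 167 CPM and 381, 361 and 283 CPM, just under the fold minimum (0.98).

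The formative and primed list, which holds genes switched on around implantation, held more falls than rises. Of 21 genes 1 rose and 5 fell, beside 5.2 and 4.52% of all genes, with a median of -0.35. Otx2, the factor that leads the exit from the naive state, was at 4.66, 5.36 and 4.46 CPM in wild type and 1.11, 1.35 and 1.1 CPM in the ERF knockout label (-2.01). Grhl2 (-1.33), an epithelial factor, Tcf7l1 (-1.26), the repressor through which the GSK3 inhibitor acts, Sall2 (-1.24) and Foxd3 (-1.005) fell too. Tcf7l1 was at 66, 94.6 and 102 CPM and 36.7, 37.7 and 35.3 CPM. Foxd3 was at the fold minimum and lost its call in 9 of 16 alternatives, among them without ko1, ko3, wt2 or wt3 (-0.84 to -0.99). The gene that rose was Car4, a carbonic anhydrase, which had 0 counts in all wild type libraries and stood at 2.45, 2.22 and 6.94 CPM in the ERF knockout label, at least 27.4-fold higher against a floor of 3 counts per library.

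Trophoblast genes moved in both directions. Of 18 tested genes 4 rose and 4 fell, beside 5.2 and 4.52% of all genes, with a median of -0.18. The 4 that rose were the keratin genes Krt19, Krt8 and Krt18 and the imprinted gene Peg10. Krt8 was at 3.61, 1.73 and 1.11 CPM and 9.32, 15.3 and 20.4 CPM (2.74), Krt18 at 6.23, 2.38 and 1.95 CPM and 6.01, 11.3 and 21.7 CPM (1.82), and Krt19 at 0.105, 0.119 and 0.139 CPM and 1.2, 1.73 and 2.89 CPM. These keratins are made by simple epithelia in general, endoderm included, and they were highest in ERF knockout label replicate 3. Without ko3, Krt18 (1.24) and Peg10 (0.81) were not called. The 4 that fell were transcription factors: Gata3 (above), Tfap2c (-1.45), Esx1 (-1.74) and Hand1, whose counts were lower by a ratio of 8.06 (95% counting interval 2.9 to 31.1) and whose call was lost without wt1 (-1.97). Tfap2c, which is also used by naive and germ cells, was at 102, 119 and 111 CPM and 46.1, 38.9 and 36.9 CPM. Of the germ layer lists, 3 of 11 mesoderm and definitive endoderm genes fell and none rose (median -0.89), among them Gsc, at 8.72, 11.2 and 9.85 CPM and 1.39, 1.9 and 1.21 CPM (-2.72), and Kdr (-1.75), another VEGF receptor. Of 9 neural genes 2 rose, Neurod1 (1.69) and Map2 (1.49), and 2 fell, Nes (-1.63) and Tubb3 (-1.06), the last not called without ko2 (-0.999) or wt3 (-0.77).

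The plot of all 30 lists shows that most medians lay near 0 while those of the two-cell-like and primitive endoderm lists did not. The share of tested members called ran from 0 to 84.6% over the lists, beside 9.72% of all genes. The lists are described, not tested. Wherever a list had no call in a direction by edgeR's quasi-likelihood test, DESeq2 called 0 in that direction too, and between 0 and 7 members passed an unadjusted p under 0.05.

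**Figure D3:**
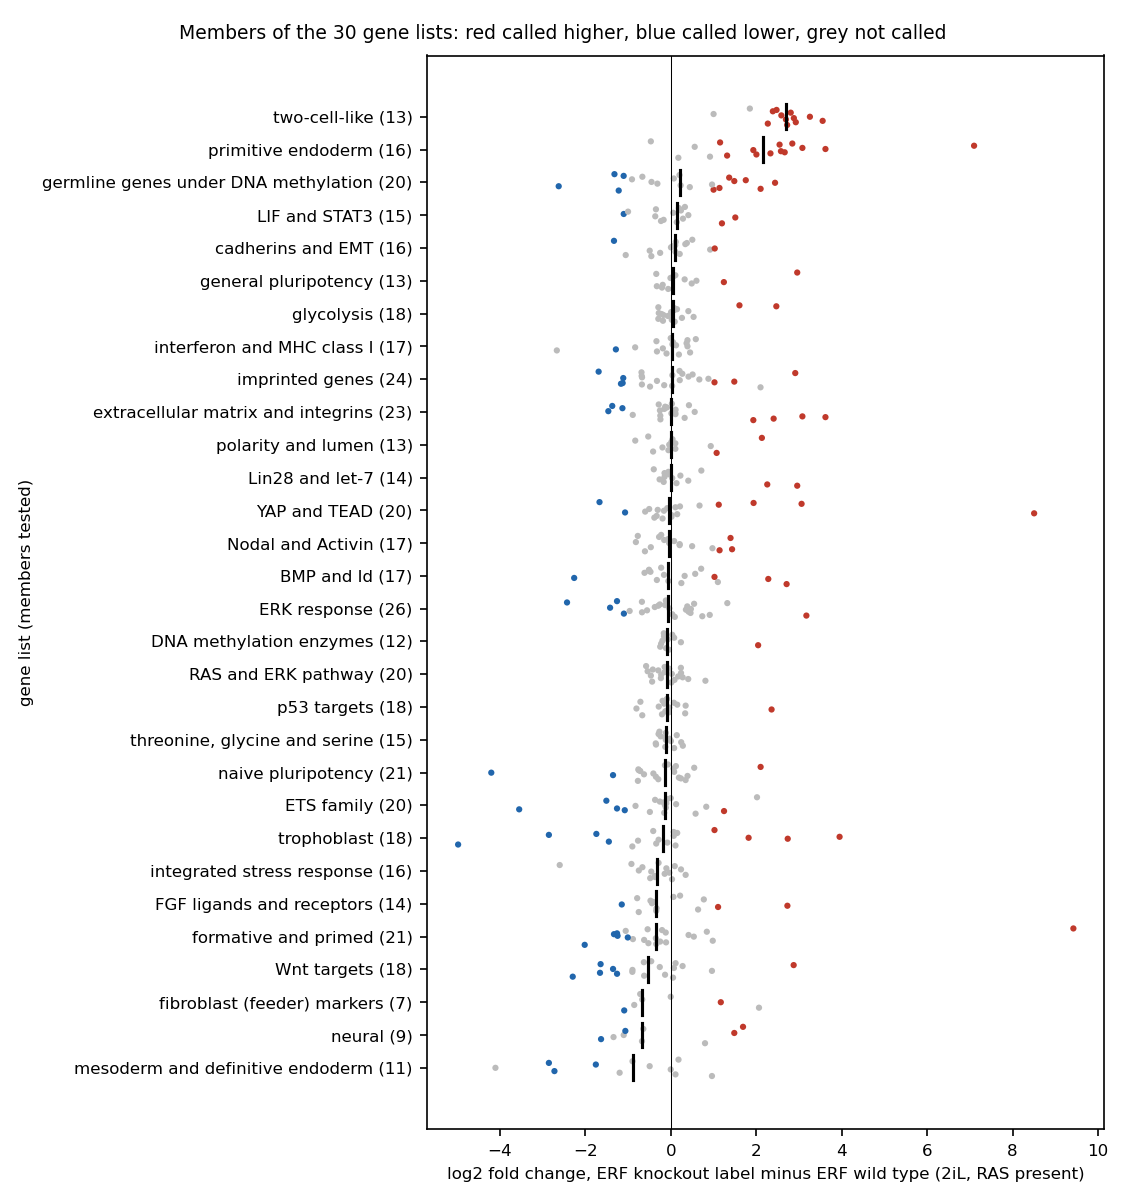
Log2 fold change (x axis) of each tested member of 30 gene lists (y axis, number tested in brackets), red for calls that rose, blue for calls that fell and grey otherwise, with a black bar at each median. The medians of the two-cell-like list (2.70) and the primitive endoderm list (2.17) lie to the right of all others, and the mesoderm and definitive endoderm list has the lowest median (-0.89).

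Of 20 tested ETS family genes, a list without Spic, 1 rose and 4 fell, beside 5.2 and 4.52% of all genes (median -0.14). Of 20 RAS and ERK pathway genes none was called by edgeR's quasi-likelihood test or by DESeq2 (median -0.09). At an unadjusted p under 0.05, 6 of the pathway genes were higher and 7 lower. Elk3, like ERF a repressor among ETS factors, was at 9.59, 6.07 and 7.11 CPM and 17.3, 17.98 and 19.3 CPM (1.25). The ETS activators Etv4 (-1.26) and Etv1 (-1.08), both read as outputs of FGF and ERK signalling, fell, as did the epithelial factor Elf3 (-1.51) and Etv2, a factor of blood and vessel precursors. Etv4 was at 42.4, 52.8 and 53.7 CPM and 20.9, 19.11 and 22.2 CPM, while the call of Etv1 was lost when any library but wt1 was left out (-0.75 to -1.09). Etv2 was at 0.665, 0.774 and 0.557 CPM and 0.0481, 0.0541 and 0.0526 CPM, lower by a ratio of 12.8 (95% counting interval 4.1 to 64.4).

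Of 26 ERK response genes 1 rose and 4 fell, beside 5.2 and 4.52% of all genes (median -0.07). The gene that rose was Spry4, which encodes a feedback inhibitor of receptor tyrosine kinase signalling. Spry4 was at 0.63, 0.536 and 0.604 CPM in wild type and 5.05, 5.14 and 6.1 CPM in the ERF knockout label (3.17, SE 0.28, adjusted p = 1.79e-08, edgeR's quasi-likelihood test). Its relative Spry2 was at 32.3, 43.8 and 46 CPM and 68.2, 74 and 61.1 CPM, a difference of 0.74 that stayed under the fold minimum. Ccnd1, which encodes cyclin D1, fell from 61.4, 67.2 and 71.5 CPM to 15.4, 11.5 and 10.2 CPM (-2.43), with Fosb (-1.42), Etv4 and the inhibitor Spred3 (-1.10). Fosb was close to the threshold (adjusted p = 0.0496, edgeR's quasi-likelihood test) and was not called when any library but wt2 was left out (-1.02 to -1.54), nor by DESeq2 (adjusted p = 0.0788), with effective lengths, without Gm26917 or without chromosomes 8 and 11. The direction of Spry4 was thus opposite to that of Ccnd1 and Etv4.

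Among 14 FGF ligands and receptors 2 rose and 1 fell, beside 5.2 and 4.52% of all genes (median -0.34). Fgf17 was at 0.56, 0.179 and 0.511 CPM and 3.17, 3.41 and 2.26 CPM (2.73), Fgf10 rose by 1.11 and Fgf3 fell by 1.15. Fgf10 lost its call when any library but wt3 was left out (0.92 to 1.16), and Fgf3 without ko3 (-0.94). Fgf4, the main FGF of naive ESC, was at 225, 183 and 171 CPM and 111, 121 and 112 CPM, lower in every ERF knockout label library but under the fold minimum (-0.75).

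Genes of the LIF pathway included 2 rises and 1 fall among 15, beside 5.2 and 4.52% of all genes (median 0.14). Socs3, the feedback inhibitor that STAT3 induces, was at 53.5, 49.2 and 47.9 CPM and 155, 141 and 134 CPM (1.51), and Lifr, a subunit of the LIF receptor, at 49, 57.4 and 60.5 CPM and 113, 129 and 140.0 CPM (1.20). Bcl3 fell by 1.10. All ERF knockout label libraries were above all wild type libraries for Socs3 and Lifr.

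In the BMP and Id list 3 of 17 genes rose and 1 fell, beside 5.2 and 4.52% of all genes (median -0.05). Bmp4, a ligand, was at 1.86, 0.833 and 0.975 CPM and 7.4, 8.5 and 9.09 CPM (2.71). Of its usual targets, which encode inhibitors of bHLH factors, Id1 rose by 2.28 and Id3 by 1.02, whereas Id2 was at 8.89, 11.5 and 9.29 CPM and 2.16, 1.73 and 2.26 CPM (-2.26). The call of Id3 was lost when any library but wt3 was left out (0.75 to 1.07). In the Nodal and Activin list 3 of 17 genes rose and none fell (median -0.04), among them Lefty2 (1.44) and Lefty1 (1.14), which encode Nodal inhibitors. Lefty2 lost its call without ko2, wt1 or wt3 (1.07 to 1.57), and Lefty1 without ko1, ko2, wt2 or wt3 (0.75 to 1.21).

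Of 18 tested Wnt target genes 5 fell and 1 rose, beside 4.52 and 5.2% of all genes, and 12 were not called (median -0.54). Cdx1, a caudal homeobox factor, was at 29.6, 24.9 and 30.7 CPM and 9.9, 9.2 and 7.94 CPM (-1.65). Sp5 fell by 2.29, the receptor gene Tnfrsf19 by 1.64, and Notum, which encodes a Wnt deacylase, by 1.35. Tcf7l1 (above) was the other gene of this list that fell. Ccnd2, which encodes cyclin D2, was at 1.09, 0.833 and 0.836 CPM and 3.6, 5.36 and 11.9 CPM (2.88), highest in replicate 3, and was not called without ko3 (2.24) or without any 1 of the wild type libraries (2.80 to 3.06). In the YAP and TEAD list 4 of 20 genes rose and 2 fell (median -0.03). Beside Ankrd1, the rises were Nt5e (3.06), F3 (1.94) and Fjx1 (1.12), and the falls were Cyr61 (-1.07) and Tgfb2 (-1.67), so that well known targets of 1 pathway moved in opposite directions. Fjx1 (0.76) and Cyr61 (-0.90) were not called without ko1.

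Among 23 tested matrix and integrin genes 4 rose and 3 fell, beside 5.2 and 4.52% of all genes (median 0.02). The rises were the collagen and laminin genes given above, and the falls were the integrin subunit genes Itga1 (-1.46), Itgb3 (-1.37) and Itga7 (-1.13). Itgb3 was at 45.1, 40.7 and 42 CPM and 19.08, 17.6 and 12.8 CPM, while Itga7 was not called without ko1 (-0.97). Of 16 cadherin and EMT genes Snai1 (1.03) rose and 1 fell, and of 13 polarity and lumen genes Podxl (1.07), which encodes the lumen glycoprotein podocalyxin, and Sytl4, near 0 in wild type, rose and none fell. Snai1 was not called without ko3 (0.66) or wt2 (0.93), Podxl without ko3 (0.73), and Sytl4 without any library but wt1 (1.73 to 2.31).

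Pdk1, which encodes a kinase that keeps pyruvate out of mitochondria (chr2:71873224-71903858), was at 19.5, 13.6 and 11.5 CPM and 80.6, 82.6 and 86.6 CPM (2.47, SE 0.13, adjusted p = 2.39e-11, edgeR's quasi-likelihood test), and Slc16a3, a lactate exporter gene, rose by 1.61. These were the 2 calls among 18 glycolysis genes (11.1%, beside 9.72% of all genes; median 0.05), and the enzymes of the pathway itself were not called. Slc16a3 lost its call without ko1 (1.16), wt2 (1.56) or wt3 (1.35). None of 15 threonine, glycine and serine genes and none of 16 genes of the integrated stress response was called (medians -0.11 and -0.33). At an unadjusted p under 0.05 the former held 3 genes higher and 3 lower, and the latter 7 lower. Of 18 p53 target genes 1 rose (5.56%, beside 5.2% of all genes) and none fell (median -0.10). It was Pmaip1, which encodes NOXA, and it went from 13.3, 7.2 and 5.62 CPM to 41.3, 47.2 and 48.9 CPM (2.36). Of 17 interferon and MHC genes Ifitm1 fell (-1.28) and none rose.

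Germline genes that DNA methylation keeps silent in somatic cells changed in both directions. Of 20 genes 7 rose and 4 fell, beside 5.2 and 4.52% of all genes (median 0.22). Among them Slc25a31 rose by 2.44 and Tdrkh by 1.49, beside Mael, while Dazl, an RNA-binding regulator of germ cells, was at 102, 103 and 91.4 CPM and 54.4, 41.3 and 31.4 CPM (-1.22) and Fkbp6 fell by 1.32. Of 12 genes for DNA methylation enzymes and cofactors only Dnmt3l was called. Dnmt3l, the cofactor of the de novo enzymes, was at 3.36, 3.99 and 4.37 CPM and 14.3, 14.2 and 19.5 CPM (2.05). Of 24 imprinted genes 3 rose and 4 fell (median 0.04): Nnat (2.91), Sgce (1.49) and Peg10 (1.02) were higher, and Grb10, Dlk1, Peg3 and Plagl1 lower. Single libraries decided the calls of Peg10 (0.81 without ko3), Dlk1 (-0.95 without wt1), Peg3 (-0.98 without ko1) and Plagl1 (-0.87 without ko3, -0.92 without wt3). Grb10, which encodes an adaptor that restrains insulin signalling, was at 92.1, 55.1 and 93 CPM and 26.6, 24.3 and 23.9 CPM (-1.69).

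The same contrast was measured in 2iL after RAS deletion, in 6 other libraries that differ in OHT as well as in RAS, which cannot be told apart. They are not independent of the first 6: same-numbered libraries with RAS present and deleted deviated together (correlations 0.25 to 0.47). Wild type replicate 1 again stood high over chromosome 8 (median log2 difference 0.17), ERF knockout label replicate 1 over chromosome 11 (0.09), and Nras was low in ERF knockout label replicate 2 of both (43.6, 7.74 and 30.7 CPM with RAS present, 52.3, 5.32 and 34.8 CPM with RAS deleted). There 2644 genes were called (13%), of which 1188 rose (5.83%) and 1456 fell (7.15%). Of the 1060 rises with RAS present, 581 also rose with RAS deleted, which is 54.8% of the former and 48.9% of the latter, and 3 fell. Of the 920 falls, 707 also fell, 76.8% of the former and 48.6% of the latter, and 1 rose. The median log2 fold change with RAS deleted was 1.29 over the rises and -1.71 over the falls.

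**Figure D4:**
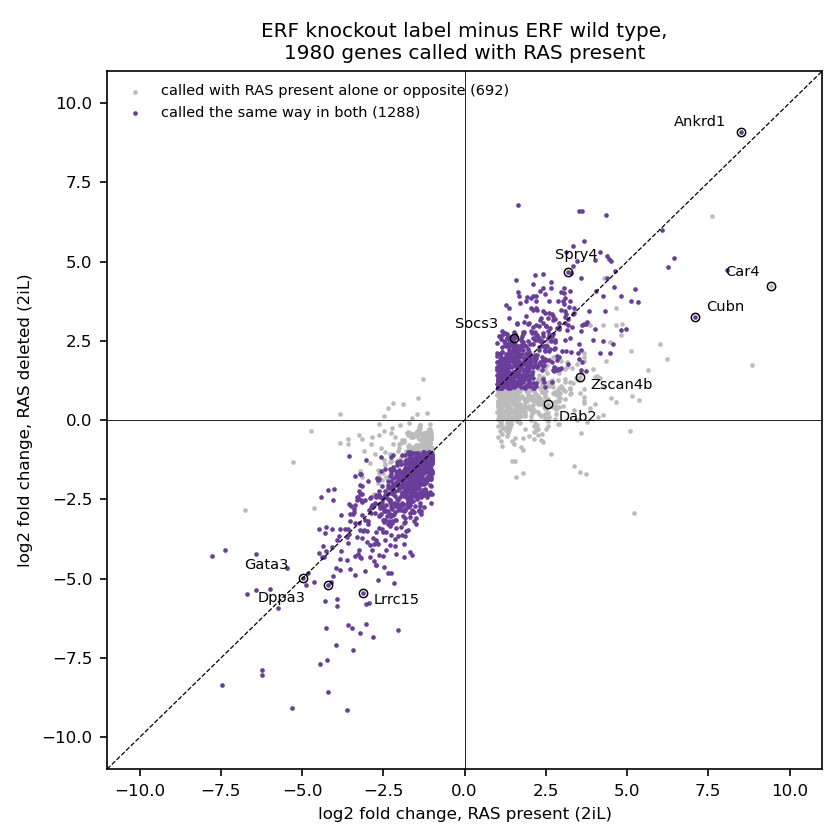
Log2 fold change of the ERF contrast with RAS present (x axis) and with RAS deleted (y axis) for the 1980 genes called with RAS present, each point 1 gene and the dashed line equality. The 1288 genes in purple were called the same way in both; Dab2 and Zscan4b lie well below the line and Lrrc15 far below it on the side of falls.

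The difference between the 2 contrasts was tested as an interaction, which called 77 genes (0.378%; 33 in the positive direction, 0.162%, and 44 in the negative, 0.216%) in the model of all libraries. Fitted on the 4 compared groups alone it called 110, and 458 when the replicate number was added to that fit as a block. In the model of all libraries the count ranged from 26 to 159 when 1 library was left out. Dab2 was among the 77: its log2 fold change went from 2.58 to 0.51 when RAS was deleted (difference -2.07, adjusted p = 0.0309, edgeR's quasi-likelihood test). Lrrc15 fell further with RAS deleted (-5.46, difference -2.33), Socs3 rose further (2.58, difference 1.07), and Id2 fell less (-1.16, difference 1.10). The primitive endoderm list had 7 rises and a median of 1.41 with RAS deleted. Its summed level there was 468, 470 and 491 CPM in wild type and 939, 1380 and 1513 CPM in the ERF knockout label, the latter with its replicates in the same order as with RAS present, although same-numbered libraries are not independent.

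In the two-cell-like list 1 gene rose with RAS deleted, and the median was 0.87. Summed over its 13 genes it was at 147, 108 and 108 CPM in wild type with RAS deleted, above the 35.9, 18.3 and 23.5 CPM of wild type with RAS present, and at 238, 285 and 113 CPM in the ERF knockout label, where levels with RAS present were 181, 225 and 77.9 CPM. The smaller fold change with RAS deleted thus sits beside a higher wild type level. For Zscan4f the difference between the contrasts was -2.06, which did not pass in the model of all libraries (adjusted p = 0.232, edgeR's quasi-likelihood test) or in the compared groups alone (-2.06, adjusted p = 0.169), and passed with the block in the compared groups (-2.11, adjusted p = 1.04e-08).

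In FA, with 2 wild type and 3 ERF knockout label libraries, 480 genes were called (2.36%), of which 321 rose (1.58%) and 159 fell (0.78%). This count ranged from 124 to 749 when 1 library was left out, with both ends given by leaving out a wild type FA library. Of the 1060 rises in 2iL, 144 also rose in FA (13.6% of the former, 44.9% of the latter), and of the 920 falls 59 also fell (6.41% and 37.1%). The interaction of ERF and medium called 870 genes (4.27%), 453 in the positive direction (2.22%) and 417 in the negative (2.05%). Among them were 332 of the rises and 294 of the falls. Both sets were chosen by the 2iL contrast, which enters this interaction, so these counts are in part set by that choice. Ankrd1, Xlr3c, Krt19 and Duxf3 were called the same way in both media, Xlr3c and Krt19 with a smaller change in FA for which the interaction passed (differences 1.48 and -2.21, adjusted p = 0.0428 and 0.0183, edgeR's quasi-likelihood test). Spry4 rose in 2iL (3.17) and fell in FA (-1.25; difference -4.43, adjusted p = 4.64e-08, edgeR's quasi-likelihood test), as did Cubn (7.10 and -1.29). Dppa3 fell by 4.20 in 2iL and was at 0.17 in FA, and Pdk1 went from 2.47 to -0.13.

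None of the primitive endoderm genes rose in FA by edgeR's quasi-likelihood test and 1, Cubn, fell (3 were higher and 3 lower at an unadjusted p under 0.05), with a median of -0.14 and sums of 1209 and 803 CPM in wild type against 1061, 1220 and 1500 CPM in the ERF knockout label. The interaction with medium was called for Cubn, Hnf4a, Foxa2, Dab2, Col4a1, Pdgfra, Sox7 and Amn, the last 2 not in a fit of the compared groups alone (adjusted p = 0.0567 and 0.0701, edgeR's quasi-likelihood test). The two-cell-like list had a median of 1.92 in FA, with 4 rises, at 91.2 and 48.3 CPM in wild type and 308, 324 and 144 CPM in the ERF knockout label.

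The ERF contrast in 2iL was also set beside the change of medium itself, taken from ERF wild type cells with RAS deleted, which share no library with it but whose 2iL libraries deviated together with those of the same number above. That change called 3371 genes (16.5%), 2029 higher in FA (9.96%) and 1342 lower (6.59%). Of the genes that rose with the ERF knockout label in 2iL, 378 were higher in FA (35.7% of the former, 18.6% of the latter) and 53 lower. Of those that fell, 300 were lower in FA (32.6% and 22.4%) and 103 higher. The median change of medium was 0.75 over the rises and -0.48 over the falls, and both sets thus held genes of either direction.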

How the data were processed

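RNA was made into rRNA-depleted, strand-specific libraries and read as 75 bp pairs. Per the submitters' processing notes, bcl2fastq 2.20.0, fastp 0.20.0 and Salmon were used with mm10; the Salmon version, the transcript set and the counting options are not given in the sources used here. The authors deposited, per the file headers, estimated counts per gene, TPM and effective lengths for each library, and a count table of all libraries; 0 cells of it differ from the rounded estimated counts. Salmon shares reads among similar transcripts, so near copies are uncertain one by one.

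Counts were rounded, and 20372 of 53607 gene rows passed filterByExpr. They were scaled by TMM and tested with edgeR 4.0.16 in R 4.3.3 (quasi-likelihood, 1 model of all 23 libraries, a coefficient per group). Standard errors are the log2 fold change over the square root of F. The 95% intervals of count ratios cover counting error only, and no molecular identifiers are named in the labels. Replicates of a group differed beyond sampling noise (chi-square per degree of freedom 3.70 to 22.4 over 6 pairs), so each library counts once. Same-numbered wild type and ERF knockout label libraries did not deviate together (correlations -0.03, -0.01 and -0.08), whereas those with RAS present and deleted did (0.25 to 0.47), which is the basis of the blocked value. Motifs were searched in RefSeq promoters of GRCm38.p6, and chromosomes were known for 20218 tested genes. Code was tested on simulated data.

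The comparison, its members and the gene lists were chosen with earlier results of these data known. Named were Erf, Hras and Nras as targets; the 15 largest rises and 15 largest falls among calls with a usual symbol, at least 5 CPM and ranges that do not overlap; the 5 most abundant of each direction; up to 4 called members a direction and the first 2 members of each list; the 3 most positive and 3 most negative calls of each interaction; and the 2 genes on each side of the fold minimum; a few genes that these rules pick are not reported. Foxa2, Pdgfra, Sox17, Sox7, Amn, Duxf3, Tmem92, Tdgf1, Lamc1, Foxd3, Gm48271, Gm49089 and, for their motif windows, the 6 promoters were chosen after their values were seen. Alternatives were the scaling, the low-count filter, effective length offsets, the fold minimum, the row Gm26917 (24.2 to 26.6% of counts), the samples in the fit, the block, DESeq2 1.42.0 and leaving out each library, plus 3 chosen after seeing the data: without chromosomes 8 and 11, without both replicates 1, and calls of at least 5 CPM.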

Additional observations from a re-analysis of the deposited data

Results flagged for a closer look

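Of 159 genes examined, 84 differences of the ERF contrast between conditions passed the interaction test (edgeR's quasi-likelihood test, adjusted p under 0.05 and at least 2-fold). These differences are on the log2 scale, and none of them was weighed for a cause. Most of these genes were chosen for their change in 2iL with RAS present, a value that enters every difference, so the sign of a difference is largely set by that choice.

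RAS state in 2iL gave 8 of them, as RAS deleted minus RAS present. Same-numbered libraries of the 2 RAS states deviated together, and in the compared groups alone 10 of the examined genes were called without the replicate block and 32 with it, each time with these 8 among them. The 32 include Zscan4 genes, Zfp352, Tcstv3, Cubn, Spry4, Dppa3, Pdgfra, Txnip and Ccnd2. The contrast was lower with RAS deleted for Lrrc15 (-2.33), Dab2 (-2.07) and Trpm1 (-1.73), and higher for Slco4a1 (1.97), Fignl2 (1.84), Ffar3 (1.76), Id2 (1.10) and Socs3 (1.07).

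Medium gave 76, as FA minus 2iL with RAS present. Of these, Cubn and Spry4 rose in 2iL and fell in FA, and Cyr61 fell in 2iL and rose in FA; for most others the contrast in FA did not pass. With the replicate block in the compared groups 66 of the 76 were called. The 10 that were not are Car4 (adjusted p = 0.0867), Sox7 (0.192), Ccnd1 (0.222), Etv2, Lefty1, Fignl2, Map2, Sgce, Tgfb2 and Tnfrsf19 (edgeR's quasi-likelihood test); without the block, 7 of the 76 were not called in the compared groups. Among primitive endoderm and matrix genes the contrast was lower in FA for Cubn (-8.39), Hnf4a (-3.78), Foxa2 (-3.49), Dab2 (-3.16), Col4a1 (-3.04), Pdgfra (-2.98), Sox7 (-2.44), Amn (-2.40) and Lamb1 (-1.83). Among pluripotency, early lineage and chromatin genes it was lower for Car4 (-9.85), Lin28a (-3.17), Dnmt3l (-2.55), Krt19 (-2.21), Lin28b (-2.02), Utf1 (-1.30), Mael (-1.26) and Tdgf1 (-1.07). Car4 was at 0 in ERF wild type in 2iL, so its fitted value has no fixed size.

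Among signalling genes the contrast was lower in FA for Spry4 (-4.43), Fgf17 (-3.25), Nt5e (-2.67), Bmp4 (-2.59), Id1 (-1.99), Fjx1 (-1.99), Fgf10 (-1.79), Lefty1 (-1.47), Spry2 (-1.41) and Socs3 (-1.09). Metabolic, imprinted and other genes with a lower contrast were H19 (-6.62), Adam23 (-3.75), Evc (-3.48), Nhs (-3.06), Csrnp3 (-2.64), Flt1 (-2.61), Pdk1 (-2.60), Slc16a3 (-2.44), Pde9a (-2.36), Nnat (-2.09), Pmaip1 (-1.72), Peg10 (-1.68), Map2 (-1.43), Slco4a1 (-1.60), Fignl2 (-1.53), Podxl (-1.31) and Sgce (-1.18).

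The contrast was higher in FA for the remaining genes. The largest differences were Spic (5.30), Ly6a (5.17), Tinagl1 (4.65), Dppa3 (4.37), Fbln5 (4.32), Aspa (4.11), Gata3 (3.63), Sp5 (3.59), Ffar3 (3.42), Tbx15 (3.34), Kcnf1 (2.97), Lrrc15 (2.78), Cyr61 (2.78), Etv2 (2.71), Calcoco2 (2.43), Prrt3 (2.20), Meis2 (2.19), Rnf213 (2.11) and Tgfb2 (2.10). Smaller ones were Gsc (1.95), Itga7 (1.93), Dazl (1.84), Id2 (1.76), Itgb3 (1.64), Otx2 (1.62), Ccnd1 (1.59), Bcl3 (1.56), Xlr3c (1.48), Nfatc2ip (1.31), Tfap2c (1.24), Tnfrsf19 (1.14) and Aebp2 (1.13).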

How the results depend on the processing

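In 2iL with RAS present, the 1980 calls became 5668 with no fold minimum and 676 (338 and 338) at 5 or more mean CPM. Under the other alternatives they lay between 1464 and 2204, the latter with no filter on low counts, and were 1872 with DESeq2. A fit of only the compared groups gave 1549, and the replicate block in that fit 1464. Leaving out 1 library gave 1638 to 1991, and the split moved from 1185 rises and 806 falls without wild type replicate 1 to 800 and 838 without wild type replicate 3. As the replicate numbers do not pair ERF wild type with the ERF knockout label, this step says nothing of a weaker effect.

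With RAS deleted the 2644 calls became 7975 with no fold minimum, and 2305 to 2620 without 1 library; only the compared groups gave 2177, and 2160 with the replicate block. In FA the 480 calls became 1992 with no fold minimum, 881 with no filter, 266 with only the compared groups, and 443 with the replicate block in them. Leaving out 1 library gave 124 (without wild type FA replicate 1) to 749 (without wild type FA replicate 2), and 238 without ERF knockout label FA replicate 2. The interaction with RAS state, 77 calls, became 320 with no fold minimum, 457 (151 and 306) with no filter, 46 with effective lengths, 147 with DESeq2, 110 with only the compared groups and 458 (141 and 317) with the replicate block in them. It was 26 to 159 without 1 library: 159 without wild type replicate 3, 40 without wild type replicate 1 or ERF knockout label replicate 2, and with RAS deleted 34 and 35 without wild type replicates 2 and 3 and 26 and 35 without ERF knockout label replicates 2 and 3. The interaction with medium, 870 calls, became 1902 with no fold minimum, 806 with only the compared groups, 689 with the replicate block in them and 577 to 1029 without 1 library, 577 being without wild type FA replicate 1. By number, 2iL and FA libraries deviated together in the ERF knockout label (correlations 0.21, 0.19 and 0.31) but not in wild type (-0.08 and -0.01). The cause of these moves was not tested.

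Genes that were not called changed sign in places. Hras (0.01) was at -0.14 with effective lengths and between -0.026, without both replicates 1, and 0.042 without libraries; Nras (-0.44) ran from -1.04 to 0.0024 (the latter without ko2), and Gata6 (0.18) from -0.081 (without ko3) to 0.73. Of 140 called genes among the 159 examined, 100 kept their call in every alternative run, 37 lost it without 1 of the libraries, and 0 changed sign. Itga1 lost its call with the replicate block in the compared groups (adjusted p = 0.0635, edgeR's quasi-likelihood test), and Nes (0.099) and Esx1 (0.0573) without both replicates 1. Genes under 1 CPM, 326 of the rises and 239 of the falls, rest on few counts.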

Other observations

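Numbered predicted genes, which the naming rule passes over, were picked out after their values were seen. Of 186 such genes with at least 20 mean CPM in 1 of the groups, 22 rose in the ERF knockout label and 3 fell. Over all genes tested, 5.2% rose and 4.52% fell, but those shares have no such minimum, so the levels are not alike. The 22 lie on 10 chromosomes, their ranges did not overlap with wild type (as for 1018 of all 1060 rises), and their log2 fold changes ran from 1.496 to 2.98 with a median of 1.73. Summed, they stood at 743, 477 and 611 CPM in wild type and at 2252, 2510 and 1435 CPM in the ERF knockout label. Gm48271 was one, at 153, 93.1 and 124 CPM and 473, 506 and 211 CPM (log2 fold change 1.68, SE 0.51, adjusted p = 0.0222, edgeR's quasi-likelihood test); its call was lost without ko1, ko2, wt2 or wt3 (1.47 to 1.69).

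These 22 genes differed in their order over the libraries. In the ERF knockout label 17 of them were lowest in replicate 3 and 14 highest in replicate 2, as most two-cell-like genes were, while 5 were lowest in replicate 1 and 5 highest in replicate 3. With RAS deleted, wild type was at 2682, 1925 and 1850 CPM, and the ERF knockout label at 2915, 3328 and 1546 CPM, with a median log2 fold change of 0.34 and 1 call. In FA the sums were 1994 and 913 CPM in wild type and 5087, 4761 and 2653 CPM in the ERF knockout label, with a median of 1.51 and 6 calls. The largest of the 3 falls was Gm49089, at 448, 269 and 251 CPM and 28.5, 20.4 and 15.1 CPM (-3.92, SE 0.62, adjusted p = 0.000207, edgeR's quasi-likelihood test).

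Calls were not spread evenly over chromosomes. On the X chromosome 15.4% of tested genes were called, beside 9.72% of all genes, and the Xlr genes lie there.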
